A study of Mus musculus with 20 samples.

Results

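Hspb1, Hspb2, Hspb8 and Cryab, genes of small heat shock proteins, were followed on 20 arrays of mouse fibroblasts with and without heat shock factor 1. They were chosen by name, and each was read through probes that list a single gene in the platform's probe table. All 4 were among the 10843 genes with such a probe and among the 10625 genes tested. Hspb1 had 3 probes, 2 of them tested, Hspb8 had 3, Cryab had 3 and Hspb2 had 1.

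Small heat shock proteins share an alpha-crystallin domain, form large oligomers, and bind unfolding proteins without using ATP. They hold these clients in a soluble state until the HSP70 machine, with its HSP40 and HSP110 partners, refolds them or hands them on for degradation. HSPB1 and alphaB-crystallin, the product of Cryab, are also known for binding actin and intermediate filaments. HSPB8 works with BAG3 and HSP70 in the selective autophagy of damaged proteins, and HSPB2 is best known from heart and skeletal muscle. Heat shock factor 1 (HSF1) is the transcription factor that binds heat shock elements and switches on chaperone genes during heat.

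The cells were HSF1 +/+ fibroblasts (WT below), which carry the factor, and HSF1 -/- fibroblasts (KO below), which lack it. Each genotype was measured on 3 arrays without heat shock (0 h) and on 1 array after each of 0.5, 1, 2, 3, 4, 6 and 8 h of heat shock. Each array compared a sample, labelled with Cy5, with a common pool, labelled with Cy3, that held mRNA of fibroblasts heated for 1 h and of unheated ones. Arrays at 0.5, 1 and 2 h are called early here (n = 3 for each genotype), and those at 3, 4, 6 and 8 h are called late (n = 4 for each). Heat shock temperature, recovery and the derivation of the lines are not given in the sources used here, so the deletion cannot be told apart from other differences between the lines. Whether the arrays at 0 h stand for separate cultures is not stated in the labels. The p-values therefore measure only how much these arrays vary, which may be technical. Only 0 h was repeated, so the spread within a window includes change over time. Image numbers in the labels run in unbroken order by genotype and then by time, so imaging order cannot be told apart from either.

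Promoter sequences from RefSeq (GRCm38.p6) are shown because heat shock elements are runs of inverted GAA units. Entries were found for Hspb1 and Hspb8. The 250 bases before the start of Hspb1, on the plus strand at chr5:135887669-135887918, hold 2 copies of GAANNTTC, given in capitals, at positions -117 and -97 from the start.
Hspb1: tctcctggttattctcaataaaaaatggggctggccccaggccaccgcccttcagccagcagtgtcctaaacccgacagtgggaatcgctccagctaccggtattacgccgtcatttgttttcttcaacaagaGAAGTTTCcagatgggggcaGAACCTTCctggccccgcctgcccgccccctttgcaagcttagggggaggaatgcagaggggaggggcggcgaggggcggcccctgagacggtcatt
The 250 bases before the start of Hspb8 hold no such match. A copy begins at position 3 counted from its start, on the minus strand, within the 26 bases at chr5:116422846-116422871.
Hspb8: aagccaggaGAAGTTTCtaggctcgc
The motifs searched were GAANNTTC and TTCNNGAA, each of which reads the same on both strands. The 3-unit forms, with a further unit after the same gap of 2 bases, contain both shorter ones. Of 32851 promoter windows, 12.8% held at least 1 of the 2-unit motifs in the 250 bases before the start and 15.1% did in the whole 300 bases. The 3-unit forms were found in 0.466% and 0.603% of windows, and in neither of these genes. A match describes letters in a window and is no evidence of binding.

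Values are log ratios of sample to pool, treated as log2 and centred on the median of each array. The base is not stated, and with natural logarithms the folds given here would be too small. A ratio to a pool sets no gene's level against another's. Arrays held 39037 to 42220 values, with medians of -0.53 to -0.18 before centring, and the number of arrays limits the precision. The targeted gene, Hsf1, had 0 single-gene probes and was not analysed here. Hspa1a, the stress-inducible HSP70, was well above its 0 h values in WT cells from 1 h on and stayed between -2.84 and -1.94 on all 10 KO arrays. Of 13 fibroblast markers 10 were tested, but a ratio to a pool of fibroblasts cannot show that they are abundant. In the late window 1 of them fell in WT cells (Pdgfra, -0.63 ± 0.19) and 1 in KO cells (Col1a2, -0.59 ± 0.17). The list medians were -0.34 and -0.32, and 3.67% and 6.8% of all genes tested fell. At 0 h Pdgfra (1.36 ± 0.20, limma adjusted p = 0.000434) and Col3a1 (0.53 ± 0.14) were higher and Fn1 (-0.71 ± 0.20) was lower in KO cells (median 0.17). There 6.64% of all genes tested passed, in either direction. In heated cells Pdgfra (-1.22 ± 0.15, limma adjusted p = 0.00224) and Col3a1 (-0.55 ± 0.11) were lower in WT than in KO (median -0.02), as were 2.42% of all genes tested. The part of these genotype differences in the values of the small heat shock protein genes was not tested.

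Before heat, none of the 4 genes differed between genotypes past the threshold. Cryab was at 1.00, 0.84 and 1.13 on the WT arrays and at 0.87, 0.56 and 0.61 on the KO arrays, and the groups overlapped. KO cells were lower by a log2 of -0.30 ± 0.18 (SE, n = 3 against 3, limma adjusted p = 0.381). Hspb8 was at 0.31, -0.32 and -0.22 in WT and at 0.39, 0.17 and 0.31 in KO, a difference of 0.36 ± 0.22 (limma adjusted p = 0.369). Its probe 1654 ran from 0.307 to 0.476 in WT and from 0.579 to 0.775 in KO (0.32 ± 0.23, limma adjusted p = 0.457), and its other probes overlapped. The share of all genes with KO arrays above all WT arrays is not given here. In the other direction 11.9% of genes had all KO arrays below all WT arrays, so the separation of 1 probe is not read as a result. Hspb1 was the most scattered, at -1.17, -0.99 and -2.36 in WT and at -2.49, -1.80 and -2.16 in KO (-0.65 ± 0.42, limma adjusted p = 0.424). Hspb2 was at -0.40, -0.59 and -0.41 in WT and at -0.05, -0.74 and -0.10 in KO (0.17 ± 0.18, limma adjusted p = 0.662). In this comparison 6.64% of all genes tested passed, in either direction.

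In WT cells Cryab, Hspb8 and Hspb1 rose in the late window, by 2.01-fold, 2.13-fold and 3.51-fold, and the value of Hspb2 did not pass. Cryab, the alphaB-crystallin gene, was at 0.82, 0.84 and 1.25 at 0.5, 1 and 2 h, and then at 2.07, 1.59, 2.12 and 2.19 at 3, 4, 6 and 8 h. Every late array lay above every 0 h array, and of the early arrays the one at 2 h did. The late window exceeded 0 h by 1.01 ± 0.17 (2.01-fold, n = 4 against 3, limma adjusted p = 0.00378). The early value was -0.02 ± 0.18 (limma adjusted p = 0.985).

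Hspb8, the partner of BAG3, was at -0.11, 0.20 and 0.69 at 0.5, 1 and 2 h in WT cells, and at 1.30, 0.64, 1.15 and 0.98 at 3, 4, 6 and 8 h. The 2 h array and all late arrays lay above the highest 0 h array. The late rise was 1.09 ± 0.20 (2.13-fold, limma adjusted p = 0.0054), and the early value was 0.34 ± 0.22 (limma adjusted p = 0.58). Hspb1, the HSP27-class chaperone, was at -1.37, 0.01 and 0.31 at the early times and at -0.19, -0.02, 0.93 and 0.50 at the late ones. From 1 h on every WT array lay above the highest 0 h array. Its late rise was 1.81 ± 0.40 (3.51-fold, limma adjusted p = 0.0124), and the early value, 1.16 ± 0.42, did not pass (limma adjusted p = 0.337).

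Thus 3 of 4 genes rose in the late window of WT cells, where 3.6% of all genes tested rose, and 0 of 4 passed in the early window, where 0.0376% did in either direction. The late arrays of all 4 genes, Hspb2 included, lay above all their 0 h arrays, as did those of 9.42% of genes. The rises of Cryab and Hspb8 stayed past the threshold with any 1 of the 7 arrays left out. That of Hspb1 was lost without the third WT 0 h array (1.38, limma adjusted p = 0.0529). With the 7 contrasted arrays fitted alone all 3 calls were lost (limma adjusted p = 0.0721 for Hspb1, 0.0683 for Hspb8 and 0.0553 for Cryab), and the count over all genes fell from 772 to 164.

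**Figure D1:**
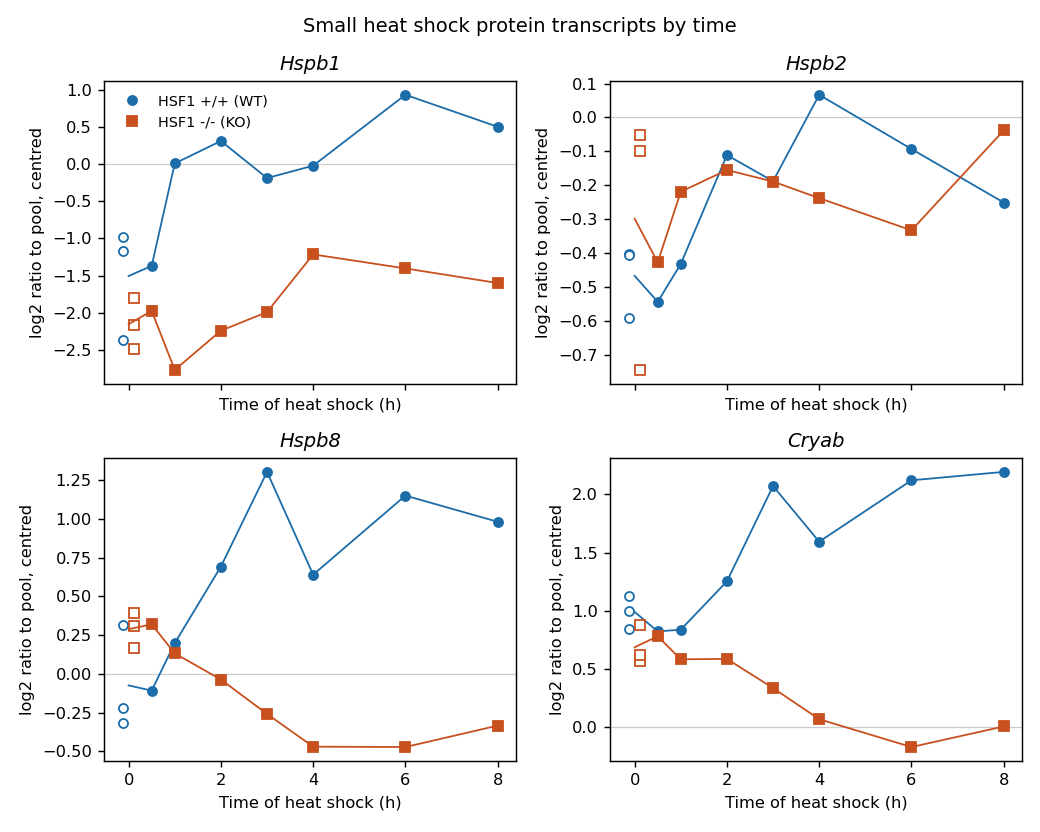
Centred log2 ratio to the pool (y axis, a different scale in each panel) against hours of heat shock (x axis) for each gene; open symbols are the 3 arrays at 0 h, shifted sideways for visibility, filled symbols are single arrays, and lines start at the 0 h mean. WT values of Cryab end at 2.19 and KO values at 0.00, Hspb8 and Hspb1 part in the same sense, and those of Hspb2 cross.

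At 4 h the WT array was the lowest of the late window for Cryab (1.59) and Hspb8 (0.64). Hspa1a also had its lowest late value there, 2.55, against 3.13 to 3.92 on the other late WT arrays. That array had the narrowest spread of values of the 4 (median absolute deviation 0.81, against 0.90 to 1.10). The part of this spread in the 4 h values was not tested.

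All probes of Cryab and Hspb8 gave the late rise in WT cells. The 3 Cryab probes rose by 0.91 to 1.14 and the 3 Hspb8 probes by 0.93 to 1.18, and all 6 passed when each probe was fitted on its own (limma adjusted p over 20881 probes from 0.00445 to 0.0151). The probes of Hspb1 did not give 1 picture. Probe 19064 was at -1.63, -0.68 and -1.30 at 0 h in WT, at -1.98, 0.62 and 1.33 in the early window, and at 2.13, 1.45, 2.81 and 2.18 in the late one. It rose by 3.34 ± 0.59 (10.1-fold, limma adjusted p = 0.00348), with every late array above every 0 h array. Probe 9799 was at -0.71, -1.29 and -3.42 at 0 h and at -2.51, -1.49, -0.94 and -1.17 late, and these overlapped (0.28 ± 0.54, limma adjusted p = 0.783). The gene value of Hspb1 is the mean of these probes, so its rise of 1.81 lies between a large and a small value.

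The same probe of Hspb1 separated the unheated genotypes. Probe 19064 was at -3.49, -2.66 and -3.22 on the KO arrays at 0 h, all below the WT arrays, a difference of -1.92 ± 0.63 that did not pass (limma adjusted p = 0.0688). At the level of genes, the KO arrays of 11.9% lay below all WT arrays at 0 h. It stayed low in KO cells after heat, at -3.48, -2.98 and -2.91 early and at -3.67, -2.08, -2.10 and -2.14 late. Its late change there was 0.63 ± 0.59 (limma adjusted p = 0.558). Probe 27710 had values on 15 arrays and was not tested. It was at -0.60, -1.48 and 0.11 at 0 h in WT and at -0.31, 0.62 and 1.16 at 3, 6 and 8 h. In KO it was at -4.34 and -2.38 at 0 h and ranged from -4.75 to -0.24 late. Both 19064 and 27710 thus had lower values in KO than in WT cells at 0 h, while 9799 had a difference of 0.62 ± 0.58 the other way (limma adjusted p = 0.585).

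**Figure D2:**
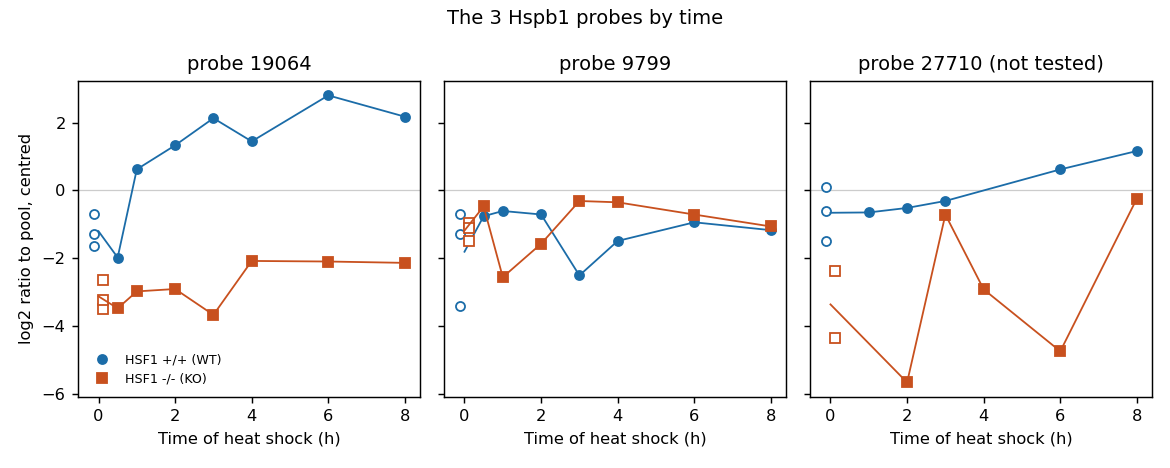
Centred log2 ratio (y axis, shared) of the 3 Hspb1 probes against hours of heat shock (x axis), with open symbols for the 3 arrays at 0 h and filled symbols for single arrays; missing values are left out. Probe 19064 reached 2.81 in WT and stayed at or below -2.08 in KO, and the genotypes overlapped on probe 9799.

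Hspb2, whose annotated span lies within that of Cryab on chromosome 9, did not pass in any comparison. In WT cells it was at -0.54, -0.43 and -0.11 early and at -0.19, 0.07, -0.09 and -0.25 late. The late value was 0.35 ± 0.17 (limma adjusted p = 0.212, 95% interval -0.01 to 0.71). In KO cells it was at -0.43, -0.22 and -0.16 early and at -0.19, -0.24, -0.33 and -0.04 late (0.10 ± 0.17, limma adjusted p = 0.774). The interval in WT allows a rise of up to 0.71, and that of Cryab, 0.64 to 1.37, overlaps it. The difference between these genes was not tested. The value of Hspb2 rests on 1 probe.

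In KO cells Cryab and Hspb8 fell in the late window. Cryab was at 0.78, 0.58 and 0.58 early, within the range of its 0 h arrays, and at 0.33, 0.06, -0.18 and 0.00 at 3, 4, 6 and 8 h, all below the lowest 0 h array. The late change was -0.63 ± 0.17 (1.55-fold lower, n = 4 against 3, limma adjusted p = 0.0261). Hspb8 was at 0.32, 0.13 and -0.04 early and at -0.26, -0.47, -0.47 and -0.33 late, again all below every 0 h array (-0.67 ± 0.20, 1.59-fold lower, limma adjusted p = 0.0403). Their early values were -0.04 ± 0.18 and -0.15 ± 0.22 and did not pass (limma adjusted p = 0.985 and 0.919). The Hspb8 probes gave early values of -0.44 (1654), 0.12 (32550) and -0.13 (34580), none past the threshold.

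In KO cells the late value of Hspb1 lay above 0 and did not pass. It was at -1.97, -2.77 and -2.24 early and at -1.99, -1.21, -1.40 and -1.60 late, a change of 0.60 ± 0.40 (limma adjusted p = 0.375, 95% interval -0.23 to 1.44). In this comparison 6.8% of all genes tested fell and 3.86% rose. The late arrays of 16.3% of genes lay below all their 0 h arrays, as those of Cryab and Hspb8 did. In the early window of KO cells 0 of 10625 genes passed in limma's test, and 793 had an unadjusted p under 0.05.

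The KO falls were near the threshold. Single probes fell by -0.59 to -0.68 for Cryab and by -0.52 to -0.82 for Hspb8, and 1 of 3 passed for each gene (probe 25481 at 0.0276 and probe 1654 at 0.0198, limma adjusted p). The call for Hspb8 was kept only without the KO array at 3 h (limma adjusted p = 0.0492). Without any other of the 7 arrays (KO 0 h arrays 1, 2 and 3, and KO at 4, 6 and 8 h) its change was -0.73 to -0.62 with adjusted p from 0.0617 to 0.148. The call for Cryab was lost without KO 0 h array 1 or 3 or KO at 6 or 8 h (-0.66 to -0.53, limma adjusted p from 0.0579 to 0.133). The late KO arrays mostly had a narrower spread of values than KO arrays at 0 h, with a median absolute deviation of 0.68 to 0.85 against 0.80 to 1.12. These ranges overlapped, with KO at 4 h (0.85) above KO 0 h array 2 (0.80). With each array scaled to 1 spread, an alternative chosen after seeing the data, Hspb8 fell by -0.75 (limma adjusted p = 0.0101) and Cryab by -0.60 (0.0297). Without centring neither passed (-0.60 at 0.0955 and -0.56 at 0.0731).

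The difference between the genotypes' late responses thus joins a rise in WT cells and a fall in KO cells for Cryab and Hspb8. Measured from the 0 h mean of its own genotype, Cryab was at 1.08, 0.60, 1.13 and 1.21 on the late WT arrays and at -0.35, -0.62, -0.86 and -0.68 on the late KO arrays. Hspb8 was at 1.38, 0.71, 1.23 and 1.06 in WT and at -0.55, -0.76, -0.76 and -0.62 in KO. Every WT array was above 0 and every KO array below 0 for both genes, as for 2.1% of all genes tested. The difference of responses was 1.64 ± 0.24 for Cryab (3.11-fold, 95% interval 1.12 to 2.15, limma adjusted p = 0.036) and 1.77 ± 0.29 for Hspb8 (3.4-fold, 1.16 to 2.37, limma adjusted p = 0.0402).

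Cryab and Hspb8 were 2 of the 8 genes (0.0753% of those tested) whose response was higher in WT cells by this test, and they had its smallest p-values. Among those 8, both sizes were exceeded by those of Hspa1a (5.84 ± 1.06), Hspa1b (5.80 ± 0.99) and Dnajb1 (2.11 ± 0.35) (limma adjusted p = 0.0438, 0.0438 and 0.0402). The size for Cryab was also exceeded by that of Rrm1 (1.75 ± 0.32, limma adjusted p = 0.0498). Some genes that did not pass had larger values too, such as Hsph1 (2.50 ± 0.52, limma adjusted p = 0.0933). Hspa1a and Hspa1b are near-identical and can bind each other's probes. For Hspb1 the difference was 1.21 ± 0.56 and did not pass (limma adjusted p = 0.565, 95% interval 0.03 to 2.39). On probe 19064 it was 2.71 ± 0.83 (limma adjusted p = 0.33) and on probe 9799 it was -0.29 ± 0.76 (0.946). For Hspb2 it was 0.25 ± 0.24 (limma adjusted p = 0.822, 95% interval -0.25 to 0.76). In the early window the differences were 1.33 ± 0.60 for Hspb1, 0.49 ± 0.31 for Hspb8, 0.02 ± 0.26 for Cryab and 0.07 ± 0.26 for Hspb2. There 0 of 10625 genes passed in limma's test, and 889 had an unadjusted p under 0.05.

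These late differences were also close to the threshold. Probe by probe they were 1.57 to 1.75 for Cryab and 1.69 to 1.86 for Hspb8, and none of the 6 passed (limma adjusted p from 0.0568 to 0.0836). Without WT 0 h array 3, WT at 3 or 6 h, KO 0 h array 1 or KO at 4, 6 or 8 h the call for Cryab was lost (1.54 to 1.70, limma adjusted p from 0.0507 to 0.119). The call for Hspb8 was kept without WT 0 h array 1, WT at 4 h or WT at 8 h, and was lost without any of the other 11 arrays (1.64 to 1.83, limma adjusted p from 0.0548 to 0.119). It was also lost without centring, with 1 probe per gene, and with 0 h number and time as a block (1.77, limma adjusted p = 0.0847, and 1.64, 0.2, for Cryab).

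**Figure D3:**
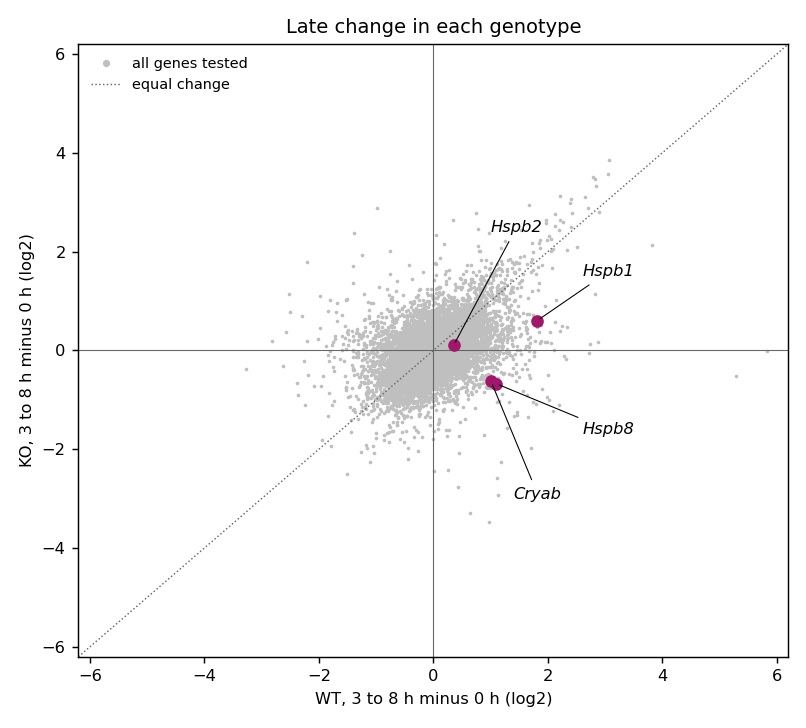
Late minus 0 h change in WT cells (x axis, log2) against the same in KO cells (y axis, log2) for all 10625 genes tested, 1 grey point each, with the 4 small heat shock protein genes in purple and a dotted line of equal change. Cryab (1.01 and -0.63) and Hspb8 (1.09 and -0.67) lie right of 0 on the WT axis and below 0 on the KO axis. Hspb1 lies at 1.81 and 0.60.

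At matched times under heat, Hspb1 and Cryab were higher in WT than in KO cells on 7 of 7 pairs of arrays. The difference for Cryab was 0.04, 0.26 and 0.67 at 0.5, 1 and 2 h and then 1.74, 1.53, 2.30 and 2.19 at 3, 4, 6 and 8 h. That for Hspb1 was 0.60, 2.78 and 2.55 early and 1.80, 1.19, 2.34 and 2.10 late. Its largest gene value, at 1 h, is a mean of probes that differed in their timing. Probe 19064 gave 3.602 at 1 h and its largest difference, 5.803, at 3 h. Probe 9799 gave 1.954 at 1 h and -2.197 at 3 h. Hspb8 gave -0.43, 0.07 and 0.73, then 1.56, 1.11, 1.62 and 1.32, and was higher in WT on 6 of 7 pairs. Hspb2 ranged from -0.21 to 0.30 and was higher in WT on 4 of 7. In 6.55% of the 9828 genes with all 7 pairs WT was higher on each.

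With time as a term over these 14 arrays, heated WT cells exceeded heated KO cells by 1.91 ± 0.25 for Hspb1 (3.76-fold, limma adjusted p = 0.00345) and by 1.25 ± 0.29 for Cryab (2.37-fold, limma adjusted p = 0.0391). WT was higher for 3.13% of all genes tested. The value for Hspb8 was 0.85 ± 0.25 and did not pass (limma adjusted p = 0.087). That for Hspb2 was 0.01 ± 0.11 (limma adjusted p = 0.987, 95% interval -0.25 to 0.26). An exact two-sided sign-flip permutation test over the 7 pairs, 1 per gene, gave p = 0.0156 for Hspb1 and for Cryab, the smallest it can give, 0.0469 for Hspb8 and 0.891 for Hspb2, none of them adjusted for the 4 genes. Neighbouring times are not independent replicates, so these p-values describe the 7 pairs. For Hspb1 the probes again parted, with 3.98 ± 0.42 on probe 19064 (15.8-fold, 7 of 7 pairs, limma adjusted p = 0.000928) and -0.16 ± 0.41 on probe 9799 (0.856). On probe 27710 WT was higher on the 4 of 4 pairs it measured, by 3.08 in the mean. No 0 h array entered these comparisons, so they are of levels under heat and not of responses. Before heat, KO minus WT was -0.65 ± 0.42 for Hspb1, -1.92 ± 0.63 on probe 19064 and 0.62 ± 0.58 on probe 9799, none past the threshold.

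The paired call for Hspb1 was kept without any 1 pair. That for Cryab was lost without the 3, 4, 6 or 8 h pair (1.07 to 1.20, limma adjusted p from 0.0935 to 0.103). Hspb8 passed without the 0.5 h pair (1.07, limma adjusted p = 0.0289) and without time in the model (0.85, 0.0247).

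**Figure D4:**
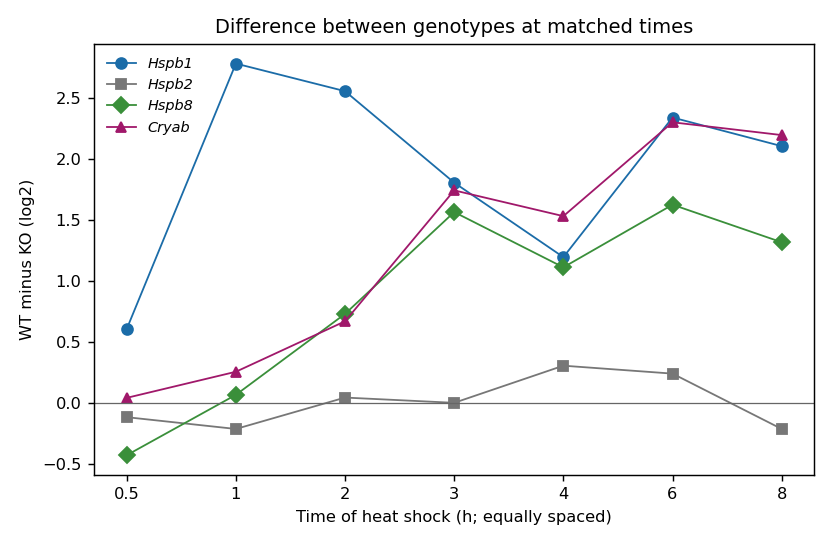
WT minus KO difference in centred log2 ratio (y axis) on each pair of arrays at the same time of heat shock (x axis, 7 times equally spaced), 1 line per gene. Hspb1, a mean of probes that differed in their timing, is at 2.78 at 1 h. Cryab and Hspb8 pass 1 from 3 h on, and Hspb2 stays between -0.21 and 0.30.

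Ordered by group mean, Cryab was highest in WT late cells (2.00 ± 0.27, SD, n = 4), then at WT 0 h (0.99 ± 0.14, n = 3), WT early (0.97 ± 0.24), KO 0 h (0.68 ± 0.17), KO early (0.65 ± 0.11) and KO late (0.06 ± 0.21, n = 4). Arrays of the first and of the last group did not overlap with those of their neighbour, and the 4 groups between overlapped in turn. Hspb8 was highest in WT late (1.02 ± 0.28), then KO 0 h (0.29 ± 0.11), WT early (0.26 ± 0.40), KO early (0.14 ± 0.18), WT 0 h (-0.07 ± 0.34) and KO late (-0.38 ± 0.11), and there WT late alone stood clear of its neighbour. It still overlapped with WT early, at 0.64 at 4 h against 0.69 at 2 h. Hspb1 ran from WT late (0.31 ± 0.51) through WT early (-0.35 ± 0.90), WT 0 h (-1.50 ± 0.75), KO late (-1.55 ± 0.33) and KO 0 h (-2.15 ± 0.35) to KO early (-2.33 ± 0.40), with every neighbouring pair of groups overlapping. The 6 group means of Hspb2 lay between -0.47 and -0.12, and all neighbours overlapped.

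Of the refolding partners, chaperones of the HSP70, HSP110, HSP40 and HSP90 classes, 10 rose in the late window of WT cells and 9 did not pass. Of 22 listed, 19 were tested, and 10 rose and 0 fell, where 3.6% of all genes tested rose and 3.67% fell (median 1.00, against -0.02 over all genes). Among those that did not pass, Hspa4 (-0.39), Hspa14 (-0.40) and Dnajb5 (-0.49) lay below 0. In KO cells 0 passed in either direction, where 3.86% of all genes rose and 6.8% fell (median -0.16, against -0.02 over all genes). Heated WT cells exceeded heated KO cells for 10 of the 19, where 3.13% of all genes were higher. At 0 h, 2 of the 19 were lower in KO cells, Hsp90aa1 (-0.72 ± 0.20) and Dnajb5 (-0.73 ± 0.21), and 0 were higher. There 6.64% of all genes passed, in either direction, and the list median was -0.22, against 0.05 over all genes. The part of these 0 h differences in the heated ones was not tested. Dnajb1, an HSP40 that drives HSP70, rose by 2.11 ± 0.25 in WT cells and gave 0.00 ± 0.25 in KO cells. Hspa1a rose by 5.83 ± 0.75 and Hsp90aa1, the inducible HSP90, by 1.36 ± 0.19 (limma adjusted p for these rises 0.00121 to 0.00184), and in KO cells they gave -0.01 ± 0.75 and 0.13 ± 0.19. Hspa8, the constitutive HSP70 that serves HSPB8, rose by 1.00 ± 0.20 in WT (limma adjusted p = 0.00792) and gave -0.34 ± 0.20 in KO (0.309). None of these 19 genes fell past the threshold in KO cells, as Cryab and Hspb8 did, but the difference between them was not tested.

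**Figure D5:**
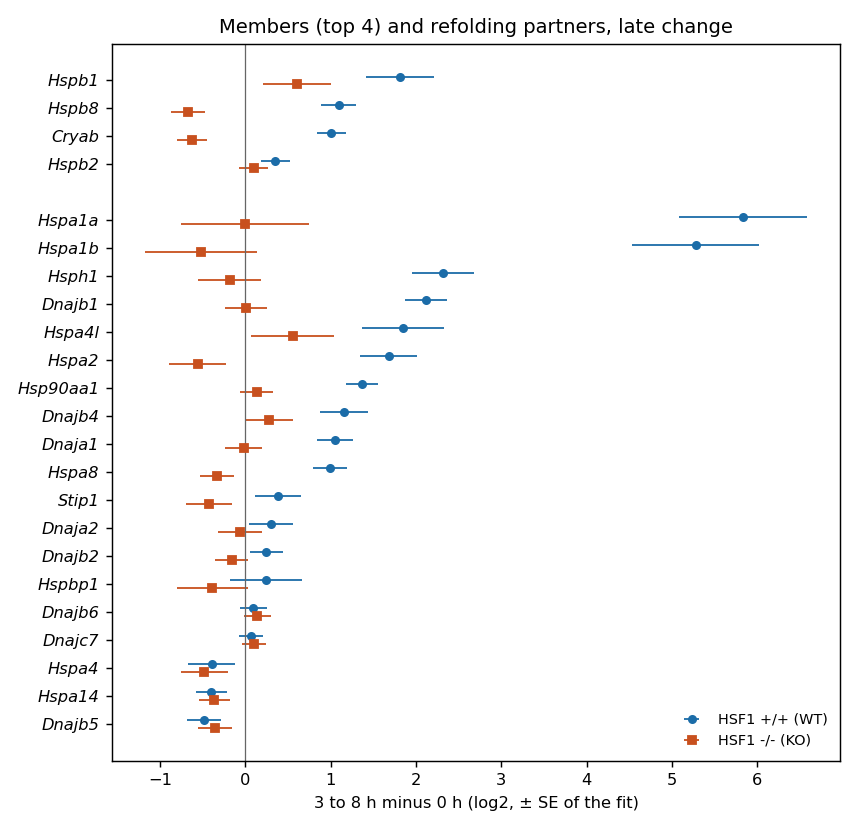
Late minus 0 h change (x axis, log2, bars are the SE of the fit) in WT cells (circles) and KO cells (squares) for the 4 small heat shock protein genes (top) and the 19 refolding partners tested, ordered by the WT value. Hspb8 and Cryab are at -0.67 and -0.63 in KO cells, where the partners range from -0.56 to 0.55.

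Of 7 other genes listed with the alpha-crystallin family 6 were tested (Cryaa, Hspb3, Hspb7, Hspb9, Hspb11 and Odf1), and 0 passed in any comparison after heat (late median 0.09 in WT and 0.01 in KO). With 3.6% of all genes rising and 3.67% falling late in WT cells, and 3.86% and 6.8% in KO cells, a count of 0 among 6 genes does not set them apart. Hspb3, a muscle form, was lower in KO cells at 0 h (-0.71 ± 0.20, limma adjusted p = 0.0348). The late WT value of Hspb9, a testis form, was 0.48 ± 0.26 (0.259).

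Of 14 listed partners of HSPB8 in BAG3-dependent autophagy 10 were tested, and in the late window of WT cells 1 rose, Hspa8 (median 0.04), while Bag3 itself gave 0.52 in WT and 0.04 in KO and did not pass. In KO cells 1 fell, Map1lc3b, a marker of autophagosomes (-0.48 ± 0.14, median of the list -0.29). Beside the 3.6% of all genes that rose in WT and the 6.8% that fell in KO cells, a count of 1 among 10 genes is too small to read as a result about the list. Gabarap, which encodes another autophagosome protein, was higher in KO cells at 0 h (0.57 ± 0.16, limma adjusted p = 0.0359) and lower in heated WT than in heated KO cells (-0.72 ± 0.14, limma adjusted p = 0.0179), where 2.42% of all genes were lower. Hspa8 was higher in heated WT than in heated KO cells (1.68 ± 0.18, limma adjusted p = 0.00132). At 0 h its KO minus WT value was -0.64 ± 0.21 and did not pass (limma adjusted p = 0.0853). None passed in the difference of late responses (median of the list 0.44, against 0.02 over all genes). Among kinases upstream of HSPB1, 8 of 12 were tested and 0 passed in any comparison (late median 0.03 in WT and -0.12 in KO). With 3.6% of all genes rising late in WT and 6.8% falling late in KO cells, a count of 0 among 8 genes does not set them apart.

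Some genes of the cytoskeleton, whose filaments small heat shock proteins bind, fell in both genotypes. Of 15 listed, 13 were tested. In the late window 0 rose and 4 fell in WT cells (median -0.53), where 3.67% of all genes tested fell, and 0 rose and 7 fell in KO cells (median -0.86), where 6.8% of all genes fell. The tubulin genes Tubb5 (-0.89 ± 0.18 in WT and -1.05 ± 0.18 in KO), Tuba1b (-1.26 ± 0.32 and -2.06 ± 0.32) and Tuba1a (-1.002 ± 0.26 and -1.67 ± 0.26) passed in both. Alpha-tubulin genes are near-identical and can bind each other's probes. None of the 13 passed in the difference of late responses (median 0.23). Actb, a cytoplasmic actin, also fell late in both genotypes (-0.78 ± 0.22 in WT and -0.96 ± 0.22 in KO). Actb and Flnc, an actin crosslinker, were lower in KO cells at 0 h (-0.91 ± 0.23 and -0.80 ± 0.18). Both were higher in heated WT than in heated KO cells (0.73 ± 0.17 and 0.81 ± 0.15).

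Markers of other cells were checked beside these results, because Cryab, Hspb2 and Hspb8 are abundant in muscle and Cryab in lens. Of 16 striated muscle markers 12 were tested, and 0 passed in the late window of WT cells (median 0.03). Acta1, an actin of skeletal muscle, fell in the late window of KO cells (-1.11 ± 0.24, median of the list 0.15) and was higher in heated WT than in heated KO cells (0.83 ± 0.17). The cytoplasmic actin genes Actb and Actg1 also fell late in KO cells (-0.96 ± 0.22 and -1.44 ± 0.44). Actb fell late in WT cells too (-0.78 ± 0.22, limma adjusted p = 0.0406). There Acta1 gave -0.68 ± 0.24 and did not pass (limma adjusted p = 0.0914). Whether the probes tell actin genes apart was not tested. Of 6 smooth muscle markers 3 were tested and 0 passed in either late window (medians -0.25 in WT and -0.59 in KO). Cnn1, a contractile protein of smooth muscle, was lower in KO cells already at 0 h (-1.45 ± 0.25, limma adjusted p = 0.00185), and Cnn1 and Acta2 were higher in heated WT than in heated KO cells (1.30 ± 0.19 and 0.89 ± 0.17, limma adjusted p = 0.00537 and 0.0161). The part of these differences in the levels of the small heat shock protein genes was not tested. Of 7 macrophage markers 6 were tested. Lyz2 rose in the late window of KO cells (0.66 ± 0.20), where 2 of the 6 lay above 0 and the median was -0.13, and 0 passed in WT cells (median 0.11). Cd68 was lower in KO cells at 0 h (-0.83 ± 0.22) and Itgam was higher in heated WT cells (1.32 ± 0.24). Of the epithelial (6 tested of 7), endothelial (3 of 6), glial and neural (4 of 7) and lens markers (2 of 5), 0 passed in any comparison. Over all genes, 3.6% rose and 3.67% fell late in WT cells, and 3.86% rose and 6.8% fell late in KO cells. At 0 h 6.64% passed in either direction, and 3.13% were higher and 2.42% lower in heated WT than in heated KO cells. Beside these shares, a count of 0 in lists this short does not show that such cells were absent. Fewer cells of a type and less RNA per cell cannot be told apart in these bulk samples.

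Over all 20 arrays, Hspb8 and Cryab were among each other's nearest genes. Likeness is Pearson's r of the centred values over the 20 arrays, given as a description, among 9458 other genes with a value on every array. All arrays share the reference pool, and neighbouring times are not independent. Cryab was most like Cacybp (r = 0.934), Saraf (0.902) and Hspb8 (0.893), and Hspb8 was most like Cryab (0.893), Saraf (0.885) and Chrd (0.843). Hspb1 was most like Hsp90aa1 (0.880), Hspa1a (0.878) and Dnajb1 (0.863). Hspb2 was most like Brpf1 (0.777), Braf (0.753) and 9930021J03Rik (0.752). Cacybp and Saraf were picked for their likeness on these same arrays, so their changes are a description with no test. Cacybp, which encodes a calcyclin-binding protein, gave a late value of 0.69 in WT and -0.20 in KO cells. Saraf, which encodes a regulator of calcium entry, gave 0.44 in WT and -0.39 in KO. At 0 h, KO minus WT was -0.65 for Cacybp and 0.11 for Saraf, so r over the 20 arrays also takes in unheated differences.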

How the data were processed

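Per the labels, Cy5 held the sample and Cy3 the pool on each of the 20 two-colour arrays. The authors deposited 1 log ratio of Cy5 over Cy3 per probe and array, treated as log2 with the base assumed; the largest absolute value, 10.2, is too large for base 10. Background correction and normalization by the authors are not given in the sources used here, and spot intensities were not used here.

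The table held 42624 probes (3.28% of values missing): 21701 listed 1 gene, 1124 several and 19799 none in the platform table. All 4 genes' identifiers matched the RefSeq table. Arrays were centred on their medians. Probes with at least 2 values in each of 6 groups were kept, 20881 with 1 gene, and a gene's value is the mean of its probes, each relative to its own mean. limma 3.58.1 (R 4.3.3; lmFit, eBayes, prior degrees of freedom 3.36) was fitted to group means of all 20 arrays, or to the 14 heated arrays with time as a term. Tests were two-sided, adjusted by Benjamini-Hochberg over all genes with a threshold of 0.05, and tested on simulated data. SE and 95% intervals are those of the moderated fit.

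The genes and lists were chosen with earlier results of these data known. All 4 genes were named whatever their result; likeness named 3 genes each, and lists up to 3 examples of smallest p in WT cells. Other genes of a list (such as Hspa1b, Bag3, Map1lc3b, Lyz2 and Col1a2) were named after their values were seen. Alternatives were no centring, quantile normalization, 1 probe per gene, complete probes, contrasted arrays only, blocks and leaving out each array. Scaling of spread and fits by probe were added after seeing the data.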

Additional observations from a re-analysis of the deposited data

Results flagged for a closer look

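In 3 of 27 groups of late arrays 1 array lay far from the others. Chance gives about 1 in 20 for independent groups, and these are not independent, since a gene's value is the mean of its probes and Hspb2 has 1 probe. Probe 19064 of Hspb1 was at -3.67 in KO cells at 3 h, against -2.08 to -2.14 on the other late KO arrays. Probe 32550 of Hspb8 was at 0.473 and probe 25481 of Cryab at 1.521 in WT cells at 4 h, each the lowest of the late WT arrays. The late response differed between the genotypes by 1.77 for Hspb8 and by 1.64 for Cryab, by the test of the difference itself (limma adjusted p = 0.0402 and 0.036).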

How the results depend on the processing

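Of 204 comparisons of a gene's value with its value under an alternative other than leaving out an array, 180 kept direction and side of the threshold, 16 lost the call, 1 gained it and 7 changed sign. All sign changes were of values that had not passed. Without centring, which moved the median of all genes by up to 0.31, the early values became 0.17 for Cryab in WT and -0.046 for Hspb2 in KO. The late KO changes were then -0.60 for Hspb8 and -0.56 for Cryab and the late differences 1.76 and 1.63, none past the threshold, with 1 gene called in WT early and 0 in the late difference. Quantile normalization gave 0.10 for Cryab in WT early, 0.22 for Hspb1 in KO early, and counts of 2 in WT early and 462 in WT late. Scaling of spread gave 0.078 for Cryab in WT early, -0.0056 for Hspb2 in the early difference, 1.22 for paired Cryab (adjusted p = 0.0508), and counts of 0 and 371. With 1 probe per gene Hspb1 in KO early was 0.0025; the late KO changes (-0.68 for Hspb8, -0.61 for Cryab), the late differences (1.86 and 1.75) and paired Cryab (1.28) lost their calls, and 1 gene was called in the late difference. Complete probes gave 2 genes in WT early and 1 in the early difference. Contrasted arrays alone gave 109 genes at 0 h, 0 in WT early and 164 in WT late, and the late WT rises of Hspb1 (1.81), Hspb8 (1.09) and Cryab (1.01) and the KO fall of Cryab (-0.63) lost their calls. The causes were not tested.

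The 0 h arrays share only a number (r of same-numbered deviations -0.02 to -0.00). With that replicate block 0 genes passed at 0 h, against 705 without it; with 0 h number and time as a block the late differences were 1.77 for Hspb8 and 1.64 for Cryab, neither past the threshold, with 3 genes called. Without the time pairing Hspb8 passed in heated cells (0.85, adjusted p = 0.0247). The block changed no other call of these 4 genes.

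Leaving out each array gave these ranges. At 0 h, Hspb1 -1.08 to -0.39, Hspb2 0.045 to 0.39, Hspb8 0.24 to 0.56, and 423 to 730 genes. In WT early, Hspb1 0.73 to 1.67, Hspb8 0.12 to 0.53, Hspb2 -0.021 to 0.20, Cryab -0.16 to 0.056, and 0 to 18 genes. In WT late, Hspb1 1.38 to 2.07 and 385 to 824 genes. In KO early, Hspb1 -0.35 to 0.046, Hspb8 -0.24 to -0.062, Hspb2 -0.19 to 0.15, Cryab -0.10 to 0.058, and 0 to 6 genes. In KO late, Hspb1 0.43 to 0.78, Hspb2 -0.12 to 0.22, Hspb8 -0.73 to -0.62, Cryab -0.72 to -0.53, and 523 to 1100 genes. In the early difference, Hspb1 0.90 to 1.84, Hspb8 0.27 to 0.68, Hspb2 -0.052 to 0.30, Cryab -0.12 to 0.092, and 0 to 5 genes. In the late difference, Hspb1 0.78 to 1.47, Hspb2 0.13 to 0.48, Hspb8 1.64 to 1.96, Cryab 1.54 to 1.77, and 0 to 6 genes. In heated pairs, Hspb2 -0.043 to 0.043, Hspb8 0.73 to 1.07, Cryab 1.07 to 1.45, and 342 to 506 genes. The number of arrays limits these results, and signal over background was not examined.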
